A study of Arabidopsis thaliana with 36 samples.

Results

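Low red to far-red light acts on seedlings within minutes, and the hypocotyl, the embryonic stem that carries the cotyledons, is the organ that lengthens in response. The comparison described here is the earliest one in that organ: hypocotyls after 15 min of low R/FR, 2 libraries, against hypocotyls kept for the same 15 min in high R/FR, 2 libraries, which is 4 of the 36 RNA sequencing libraries of the series. The libraries were chosen by their labels, without use of any measured value. All came from Arabidopsis thaliana Col-0, with no mutation or transgene named; seedlings grew for 5 days in long days on agar medium and were sampled on day 6. In the low R/FR group, white light was supplemented with far-red for 15 min; in the high R/FR group the seedlings stayed in white light. Other groups used for comparison were hypocotyls in high R/FR at 0 min, hypocotyls in both lights at 45, 90 and 180 min, and cotyledons in both lights at 15 min, again with 2 libraries each. Seedlings were fixed in cold acetone and dissected, and each library pooled the organ of many seedlings of 1 plate, so the values are averages over all cell types of the organ. The labels number the low R/FR libraries 1 and 3 and the high R/FR libraries 1 and 2. Apart from the plate, nothing in them marks separate cultures or days. The p-values therefore measure the spread between samples, which may be technical. That spread is shared over all 36 libraries, of both organs and all times, and is not that of the 4 libraries alone.

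Phytochrome B is held active by red light and is switched off by far-red light reflected from neighbouring plants. When it is inactivated, phytochrome-interacting factors (PIFs), basic helix-loop-helix (bHLH) transcription factors, bind G-boxes and related sites and switch on shade genes, among them regulators that hold the response in check. Auxin made by YUC enzymes, mainly in the cotyledons, moves down to the hypocotyl, where it induces Aux/IAA repressors and small SAUR proteins, which favour acidification and loosening of the cell wall.

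The 4 libraries held 23560273 to 34231167 gene counts. Of 33602 genes in the table, 20126 had enough counts to be tested. High R/FR library 2 stood apart from the other 17 hypocotyl libraries before any comparison was made. It held 39 non-unique alignments per 100 gene counts, against 7.24 to 11.23 in the others, and 0.254% of its gene counts came from chloroplast-encoded genes, against 0.0202 to 0.051%. It also had 90 genes at more than 2-fold above every other hypocotyl library, 78 of them encoded in the chloroplast or mitochondrion. Compared over all genes, the 2 high R/FR libraries had a chi-square of 20.82 per degree of freedom, the highest of the 18 groups, and the 2 low R/FR libraries 12.6, so neither pair was a copy. Counts of calls are therefore also given without that library.

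Within 15 min of low R/FR, hypocotyls held more transcript of the shade regulators ATHB2, PIL1, ATHB4 and HFR1 and of the 6 SAUR genes of the SAUR19 to SAUR24 cluster. In all, 32 genes rose and 4 fell at a Benjamini-Hochberg adjusted p under 0.05 in the edgeR quasi-likelihood test, which is 0.159% and 0.0199% of the genes tested and 0.179% together. With the 18 hypocotyl libraries fitted alone, the 4 regulators were still called and 0 of the 6 SAUR genes of the cluster were. Each change is the log2 of low over high R/FR and carries a standard error. That error is the absolute change divided by the square root of the F statistic of the test. Each contrast has its own F statistic, so the error of a difference need not follow from the errors of its parts. The 32 rises had a median of 0.80 and ran from 0.45 to 3.24, and 13 of them were at least 2-fold. At an unadjusted p under 0.05, 1430 genes passed, or 7.11%. For all 32, both low R/FR libraries lay above both high R/FR libraries, an order that 16.0% of all tested genes also showed. For 31 of them the low R/FR libraries also lay above both high R/FR libraries of 0 min, the exception being AT4G28240, against 5.34% of all genes.

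**Figure D1:**
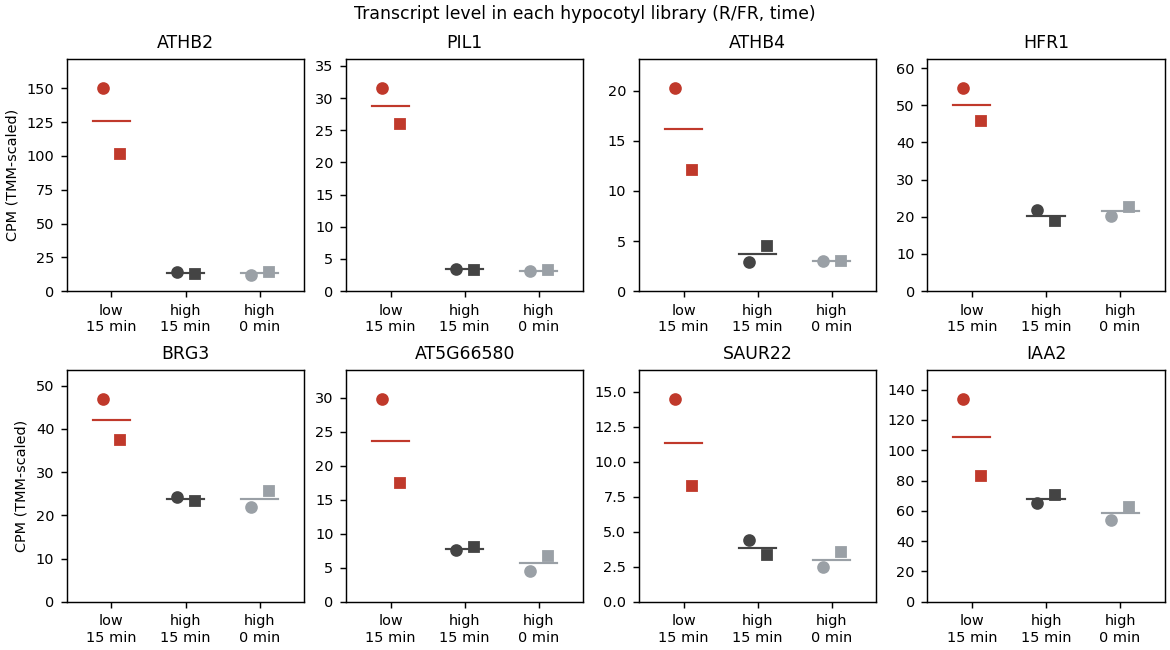
Transcript level, in CPM, read counts scaled to library size with TMM factors, on linear axes starting at 0, of 8 genes in each hypocotyl library in low R/FR at 15 min, high R/FR at 15 min and high R/FR at 0 min. Circles are library 1, squares are library 3 in low R/FR and library 2 in high R/FR, and bars are means of 2; in every panel both low R/FR libraries lie above all 4 high R/FR libraries.

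The count of calls rested on single libraries. Without high R/FR library 2, 6 genes rose and 0 fell (0.0294% of 20386 tested; 568 and 189 at an unadjusted p under 0.05): ATHB2, PIL1, ATHB4, HFR1, BRG3 and AT5G66580. All 32 still had a positive log2 change, which groups that do not overlap make sure of, with a median of 0.76 and a lowest value of 0.38, and each stayed within 1.5 times its value with all 4 libraries. Without high R/FR library 1, 29 of the 32 were called; leaving out low R/FR library 1 kept 13 calls and leaving out low R/FR library 3 kept 30; the medians of the 32 were then 0.85, 0.65 and 1.05. The log2 changes of 5 genes, AT1G54200, IAA2, HAT3, HAT1 and SAUR1, were more than 1.5 times smaller once low R/FR library 1 was removed. With the 2 high R/FR libraries of 0 min joined to high R/FR library 1 of 15 min as control, which avoids library 2, 62 genes rose and 3 fell (0.323% together), and 27 of the 32 were among the 62. The 5 not called there were SAUR6, LSH6, AT2G36026, HSFC1 and AT4G28240. The 2 libraries of 0 min were taken 15 min earlier, so this control partly mixes sampling time with light. The part of time in its calls was not tested.

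**Figure D2:**
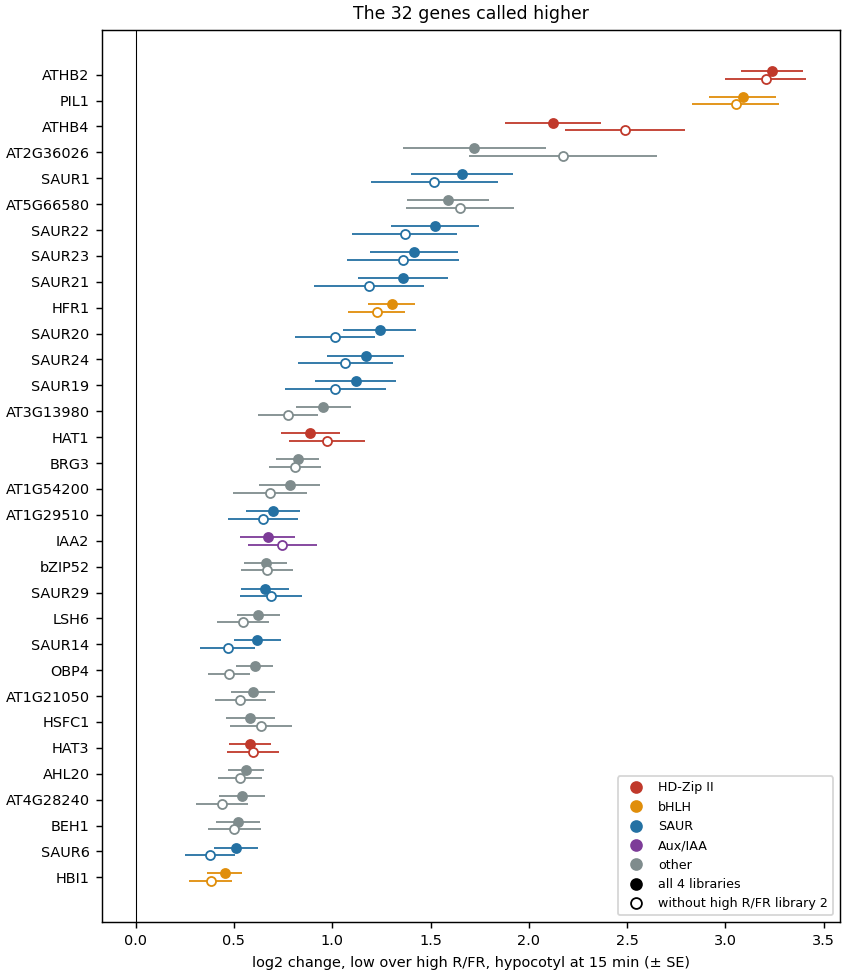
Log2 change of low over high R/FR in hypocotyl at 15 min with its standard error for each of the 32 genes called higher, with all 4 libraries (filled) and without high R/FR library 2 (open), coloured by gene family. All values are above 0, and the 6 genes called in both fits are ATHB2, PIL1, ATHB4, HFR1, BRG3 and AT5G66580.

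The largest rise was that of ATHB2, a homeodomain-leucine zipper class II (HD-Zip II) transcription factor that promotes elongation in shade. Its transcript reached 150 and 102 CPM in low R/FR, against 13.8 and 12.9 CPM in high R/FR, a log2 change of 3.24 ± 0.16 (adjusted p = 2.56e-12). PIL1, a bHLH protein that interacts with PIFs and restrains the response, had 31.5 and 26 CPM in low R/FR against 3.5 and 3.23 CPM in high R/FR, a log2 change of 3.09 ± 0.17 (adjusted p = 8.01e-12). For both genes the 2 groups were far apart, and the high R/FR libraries of 0 min lay at the level of high R/FR at 15 min, with 12.2 and 14.3 CPM for ATHB2 and 3.13 and 3.28 CPM for PIL1. HFR1, an atypical bHLH protein that binds PIFs and keeps them from DNA, stood at 54.6 and 45.8 CPM in low R/FR and 21.7 and 18.9 CPM in high R/FR (log2 change 1.3 ± 0.12, adjusted p = 1e-07). Its groups did not overlap, and its levels at 0 min, 20.2 and 22.7 CPM, were those of high R/FR at 15 min.

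Of 10 HD-Zip II genes tested, 4 rose and none fell, and the list had a median log2 change of 0.58 beside -0.0018 for all genes tested. ATHB4 had 20.3 and 12.1 CPM in low R/FR against 2.88 and 4.55 CPM in high R/FR, a log2 change of 2.12 ± 0.24 (adjusted p = 8.41e-05). Its low R/FR libraries differed from each other more than those of PIL1 did, and the groups still did not overlap. HAT1 stood at 90.3 and 51.9 CPM in low R/FR and 36.5 and 40.1 CPM in high R/FR (0.89 ± 0.15), and HAT3 at 57.7 and 42.4 CPM against 33.4 and 33.3 CPM (0.58 ± 0.11). HAT2, named after its values were seen, was not called, with 44.5 and 24.2 CPM in low R/FR and 21.7 and 23 CPM in high R/FR (adjusted p = 0.498). Without high R/FR library 2, ATHB2 and ATHB4 were the 2 members called, and HAT1 and HAT3 stood at 0.97 and 0.60 (adjusted p = 0.099 and 0.149). Without low R/FR library 1, HAT1 and HAT3 stood at 0.46 and 0.37 (adjusted p = 0.152 and 0.474).

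Among 14 tested shade-related bHLH genes, 3 rose, PIL1, HFR1 and HBI1, with a list median of 0.57. HBI1, which promotes cell elongation, had 283 and 261 CPM in low R/FR against 211 and 186 CPM in high R/FR, a log2 change of 0.45 ± 0.09 (adjusted p = 0.0159), the smallest of the 32. Its adjusted p was 0.658 once high R/FR library 2 was removed. The small non-DNA-binding bHLH proteins PRE6 and PRE5, also named after their values were seen, stood at 0.72 and 0.93 and were not called (adjusted p = 0.501 for each).

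SAUR genes made up 11 of the 32. Their products are small proteins induced by auxin, and those of the SAUR19 group inhibit PP2C phosphatases that would otherwise switch off plasma membrane proton pumps. The SAUR19 to SAUR24 genes lie together on chromosome 5 and are near-copies: over the 15 pairs their coding sequences, 267 to 276 bases long, were 87.7 to 95.2% identical in the RefSeq TAIR10.1 genome, with a longest identical run of 30 to 86 bases. The first 60 coding bases of the 6 genes are shown because they let a reader see how little separates the reads of one gene from those of the next; capitals mark the 12 positions at which the 6 differ.
SAUR19: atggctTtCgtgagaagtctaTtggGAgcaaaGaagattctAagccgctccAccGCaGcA
SAUR20: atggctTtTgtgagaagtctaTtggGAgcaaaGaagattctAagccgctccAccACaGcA
SAUR21: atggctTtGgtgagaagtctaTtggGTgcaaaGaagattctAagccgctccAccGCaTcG
SAUR22: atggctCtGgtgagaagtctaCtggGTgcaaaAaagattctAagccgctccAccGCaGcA
SAUR23: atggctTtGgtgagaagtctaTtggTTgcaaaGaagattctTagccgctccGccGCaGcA
SAUR24: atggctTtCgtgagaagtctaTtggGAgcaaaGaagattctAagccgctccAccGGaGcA
Reads that fall in runs shared by 2 or more of these genes could have been left uncounted or placed on the wrong copy, so the split between members is uncertain, and their values are given as those of a group of 6.

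All 6 members of the cluster were called, with a median log2 change of 1.3. SAUR22 had 14.5 and 8.24 CPM in low R/FR against 4.38 and 3.34 CPM in high R/FR (1.52 ± 0.22, adjusted p = 0.00154), and SAUR23 had 13.6 and 8.87 CPM against 4.38 and 3.93 CPM (1.41 ± 0.22). SAUR20 stood at 45.7 and 33 CPM in low R/FR, against 19.7 and 13.3 CPM in high R/FR (1.24 ± 0.19), and SAUR24 at 39.0 and 28.4 CPM against 16.2 and 13.5 CPM (1.17 ± 0.20). SAUR21, with 29.4 and 20.5 CPM in low R/FR against 11 and 8.20 CPM in high R/FR, and SAUR19, with 19.5 and 12.6 CPM against 7.97 and 6.64 CPM, changed by 1.36 ± 0.23 and 1.12 ± 0.21. In each of the 6, low R/FR library 1 was the highest of the 4 libraries and high R/FR library 2 the lowest. Without high R/FR library 2 the median was 1.13 and 0 were called by edgeR (lowest adjusted p = 0.099), though all 6 had an unadjusted p under 0.05. With the control of 0 and 15 min, which avoids that library but mixes sampling times, all 6 were called, with a median of 1.28. With that library kept, 0 of the 6 were called from the 18 hypocotyl libraries alone (adjusted p of 0.0812 to 0.246) or from the 4 libraries alone (0.562 to 0.998), 2 without low R/FR library 1 (SAUR20 and SAUR22), and 4 with the replicate number as a block, SAUR19 and SAUR21 then having an adjusted p of 0.0501.

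The other 5 SAUR genes called were SAUR1, SAUR29, AT1G29510, SAUR14 and SAUR6. SAUR1 stood at 19.5 and 8.67 CPM in low R/FR and 4.88 and 3.82 CPM in high R/FR (1.66 ± 0.26, adjusted p = 0.00339). SAUR29 had 29 and 27.3 CPM in low R/FR against 17.7 and 18 CPM in high R/FR (0.66 ± 0.12), and AT1G29510, of the SAUR61 to SAUR68 cluster, 27.1 and 21.8 CPM against 15.8 and 14.2 CPM (0.70 ± 0.14). SAUR14 and SAUR6 were the smaller rises, at 0.62 ± 0.12 and 0.51 ± 0.11. The SAUR61 to SAUR68 and SAUR26 to SAUR29 clusters had 1 called gene each of 8 and 5 tested, with medians of 0.62 and 0.61; 7 of 8 and 4 of 5 members were positive. Of 44 other SAUR genes 3 were called, with a median of 0.06 and 25 positive, beside 9896 of 20126 positive among all genes. SAUR50 and SAUR13, named after their values were seen, stood nearest to the threshold, with 0.93 ± 0.21 and 0.95 ± 0.21 (adjusted p = 0.0897 and 0.0728). Over all SAUR lists, 11 of 63 tested genes rose. With the control of 0 and 15 min, which avoids high R/FR library 2 but mixes sampling times, 20 rose. The median of the 63 was 0.26 with all 4 libraries and 0.17 without high R/FR library 2.

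Promoter sequences are shown for 6 of these genes because PIFs bind the G-box CACGTG and the PBE-box CACATG, read on either strand. Each is the 250 bases before the RefSeq gene start in TAIR10.1, written on the gene's strand, and capitals mark G-boxes and PBE-boxes. ATHB2 (chr4:9448864-9449113, plus strand) and PIL1 (chr2:19297859-19298108, minus strand) hold neither in this window; SAUR22 (chr5:5975088-5975337, minus strand), SAUR21 (chr5:5968102-5968351, plus strand) and SAUR19 (chr5:5963406-5963655, minus strand) hold PBE-boxes, and SAUR24 (chr5:5983433-5983682, plus strand) does not. The window of SAUR19 overlaps another annotated gene, AT5G02835. The other cluster members, SAUR20 and SAUR23, whose promoters are not shown, hold neither a G-box nor a PBE-box in the window.
ATHB2: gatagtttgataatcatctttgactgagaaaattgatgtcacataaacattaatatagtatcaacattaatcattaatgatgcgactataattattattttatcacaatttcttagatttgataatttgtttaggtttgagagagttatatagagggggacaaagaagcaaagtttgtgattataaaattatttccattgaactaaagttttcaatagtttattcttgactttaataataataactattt
PIL1: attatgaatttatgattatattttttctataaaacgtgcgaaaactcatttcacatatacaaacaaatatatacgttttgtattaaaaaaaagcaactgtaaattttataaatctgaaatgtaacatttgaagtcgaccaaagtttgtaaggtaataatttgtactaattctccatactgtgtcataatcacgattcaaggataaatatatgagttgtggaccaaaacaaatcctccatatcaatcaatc
SAUR22: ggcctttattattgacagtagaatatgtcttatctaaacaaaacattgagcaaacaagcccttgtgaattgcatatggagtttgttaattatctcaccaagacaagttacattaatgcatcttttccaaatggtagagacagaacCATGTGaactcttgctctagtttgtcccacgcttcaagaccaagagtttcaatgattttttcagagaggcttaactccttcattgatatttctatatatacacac
SAUR21: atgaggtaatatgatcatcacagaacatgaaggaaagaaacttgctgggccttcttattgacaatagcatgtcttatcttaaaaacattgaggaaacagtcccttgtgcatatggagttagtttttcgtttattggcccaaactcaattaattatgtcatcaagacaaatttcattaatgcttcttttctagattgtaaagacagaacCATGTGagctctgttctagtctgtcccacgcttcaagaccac
SAUR19: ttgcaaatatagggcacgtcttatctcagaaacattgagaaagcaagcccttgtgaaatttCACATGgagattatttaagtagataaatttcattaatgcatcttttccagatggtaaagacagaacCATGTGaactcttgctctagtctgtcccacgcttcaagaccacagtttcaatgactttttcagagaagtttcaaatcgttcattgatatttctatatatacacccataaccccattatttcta
SAUR24: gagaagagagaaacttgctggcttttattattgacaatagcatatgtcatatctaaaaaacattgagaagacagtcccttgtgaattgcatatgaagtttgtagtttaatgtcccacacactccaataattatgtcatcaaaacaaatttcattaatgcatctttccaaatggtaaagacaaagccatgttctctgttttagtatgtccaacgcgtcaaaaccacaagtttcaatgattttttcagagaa
In these letters the PBE-box starts 105 bases before the gene start in SAUR22, 42 in SAUR21, and 189 and 123 in SAUR19. Among all 32 rising genes, each of which matched a RefSeq gene, 11 held a PBE-box (34.4%), against 11.1% of the 19362 tested genes with a RefSeq promoter. Of these 11, 8 were among the 11 SAUR genes, some of them near-copies, and 3 (AT2G36026, AHL20 and AT4G28240) were among the 21 other genes (14.3%). A G-box stood in 3 of 32 (9.38%, against 7.3%), namely AT3G13980, bZIP52 and LSH6, and 1 of either kind in 14 of 32 (43.8%, against 17.3%). The auxin response element TGTCTC, read on either strand, was in 5 of 32 (15.6%, against 10.6%). A promoter with several or overlapping matches of a motif was counted once for it. HFR1 and ATHB4 also held neither G-box nor PBE-box in the window, which says only that these letters are absent from it.

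Of 27 Aux/IAA repressor genes 1 rose, IAA2, with 134 and 83.3 CPM in low R/FR against 65.5 and 70.7 CPM in high R/FR (0.67 ± 0.14, adjusted p = 0.0434). Its change was 0.75 without high R/FR library 2 (adjusted p = 0.255) and 0.31 without low R/FR library 1 (adjusted p = 0.732). The list had a median of -0.01 with 12 members positive. IAA29 had 14.2 and 9.64 CPM in low R/FR against 5.30 and 4.41 CPM in high R/FR, a log2 change of 1.28 ± 0.28 that missed the threshold (adjusted p = 0.0728). The groups of IAA29 did not overlap, and its adjusted p was 0.567 when low R/FR library 1 was removed, 0.801 when high R/FR library 2 was, and 0.0179 with the control of 0 and 15 min that avoids high R/FR library 2. IAA19 did overlap, with 12.6 and 6.16 CPM in low R/FR and 5.80 and 7.51 CPM in high R/FR (adjusted p = 0.739). XTH15, a wall enzyme gene of later shade responses, stood at 6.41 and 6.5 CPM in low R/FR against 5.68 and 5.39 CPM in high R/FR (0.22 ± 0.18, adjusted p = 0.871).

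**Figure D3:**
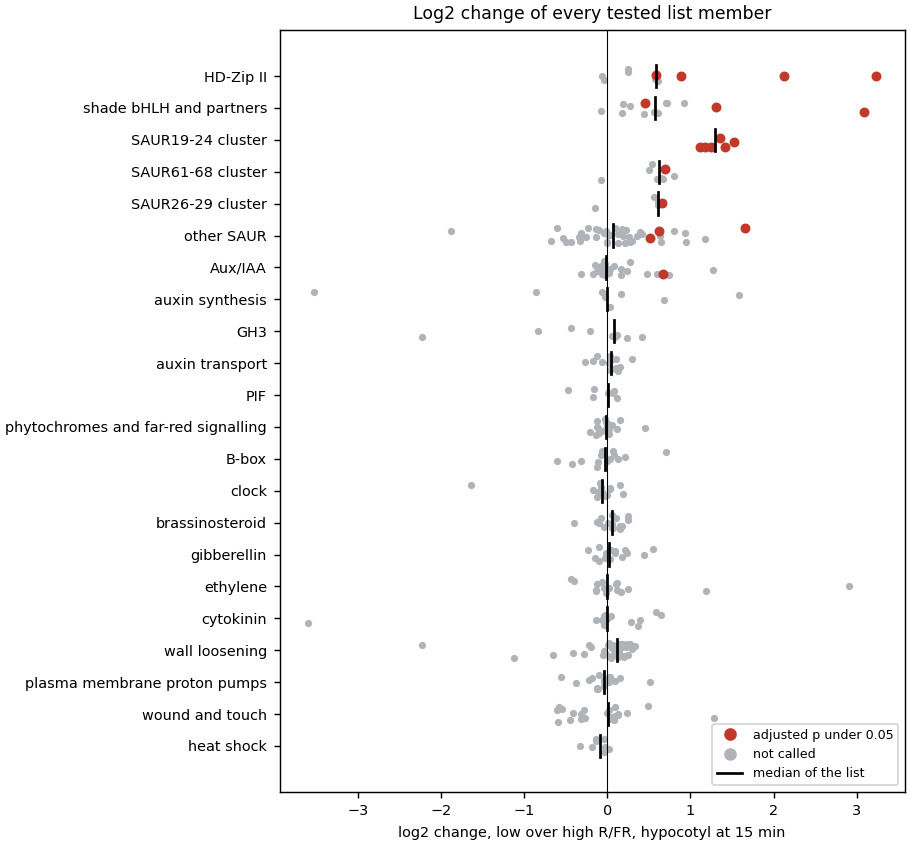
Log2 change of low over high R/FR in hypocotyl at 15 min for every tested member of 22 gene lists; red points have an adjusted p under 0.05 and black bars are list medians. Called genes are confined to the first 7 lists, and the SAUR19 to SAUR24 cluster has the highest median, 1.3.

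The 15 other lists of genes of light, hormone, wall and stress pathways held 239 tested genes, and edgeR called 0 of them, with 13 higher and 7 lower at an unadjusted p under 0.05; DESeq2 called 2 and limma-voom 0. The 2 were BBX29, a B-box protein of light signalling, with 11.9 and 9.23 CPM in low R/FR against 6.06 and 6.91 CPM in high R/FR (0.70 ± 0.17, adjusted p = 0.0979), and GAI, a DELLA repressor of growth, with 39.9 and 26.2 CPM against 23.4 and 25.1 CPM (0.44 ± 0.12, adjusted p = 0.197). Both were called with the control of 0 and 15 min that avoids high R/FR library 2. PIF genes themselves did not pass, with PIF7, the PIF most tied to shade in this species, at 29.5 and 27.1 CPM in low R/FR against 33.9 and 30.02 CPM in high R/FR (-0.18 ± 0.08, adjusted p = 0.619). The phytochrome and far-red list had PKS4 and FAR1 at its lowest p, with 0.45 ± 0.19 and -0.22 ± 0.10. In the GH3 family, GH3.5 stood at 0.41 ± 0.15 and GH3.12 at -0.84 ± 0.37. The auxin carriers PIN3 and LAX1 stood at 0.29 ± 0.13 and 0.16 ± 0.07.

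Several auxin synthesis genes had only a few counts in the hypocotyl. YUC9 had 1 and 2 counts in the low R/FR libraries and 3 and 2 in the high R/FR libraries, and YUC8 had 1 and 1 against 1 and 0. YUC5 had 1 and 3 counts in low R/FR against 1 and 0 in high R/FR, so that CPM were 3.53 times as high (exact 95% interval of the counting, 0.349 to 174). YUC3 had 1 count over the low R/FR pair and 13 over the high R/FR pair, or 0.0678 times the CPM (interval 0.0016 to 0.452), and was not called (adjusted p = 0.277). These exact intervals cover counting error only. YUC2 held 11 and 19 counts in low R/FR against 15 and 12 in high R/FR.

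Genes of the brassinosteroid, gibberellin, ethylene, cytokinin and wall lists were not called by edgeR with the 15 min control. With the control of 0 and 15 min, 1 cytokinin gene of 13 was called higher. The brassinosteroid genes DWF4 and BZR1 stood at 0.25 ± 0.10 and 0.24 ± 0.10, and the gibberellin regulator RGA at 0.23 ± 0.09. ACS10 and ACS6 of the ethylene list stood at 0.11 ± 0.07 and -0.40 ± 0.25. CKX6, a cytokinin oxidase, had 16.2 and 9.57 CPM in low R/FR against 7.5 and 8.79 CPM in high R/FR (0.65 ± 0.19, adjusted p = 0.331), and ARR16 had 0 counts in low R/FR against 0 and 3. Wall loosening genes, expansins and XTH enzymes, had 30 of 40 members positive with a median of 0.12, beside 9896 of 20126 among all genes. Without high R/FR library 2, 25 of 40 were positive with a median of 0.07, beside 11187 of 20386. XTH28 and EXPA16 stood at 0.19 ± 0.09 and -0.65 ± 0.33. The proton pump genes AHA8 and AHA5 stood at -0.22 ± 0.09 and -0.19 ± 0.10. Genes of the clock (LNK2 at -0.13 ± 0.07, PRR5 at -1.65 ± 0.62), of wounding and touch (JAZ12 at 0.24 ± 0.09, WRKY53 at -0.60 ± 0.33) and of heat shock (HSP70B at -0.32 ± 0.20, HSP18.2 at -0.14 ± 0.18) were not called, and neither were PIF6 (-0.47 ± 0.25) or BBX30 (-0.43 ± 0.17).

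The remaining 13 rising genes belong to none of the lists. BRG3, of a family of RING ubiquitin ligases, had 47.0 and 37.3 CPM in low R/FR against 24.3 and 23.2 CPM in high R/FR (0.82 ± 0.11, adjusted p = 8.41e-05). AT5G66580, a protein of unknown function, had 29.9 and 17.42 CPM against 7.56 and 8.03 CPM (1.59 ± 0.21, adjusted p = 0.000686). Both were among the 6 called without high R/FR library 2, with adjusted p = 0.00589 for BRG3 and 0.0248 for AT5G66580. With that library kept, AT5G66580 had an adjusted p of 0.0812 from the 18 hypocotyl libraries alone and 0.998 from the 4 libraries alone. AT3G13980, also of unknown function, stood at 216 and 162 CPM in low R/FR and 112 and 82.7 CPM in high R/FR (0.96 ± 0.14).
The other 10 were described after their values were seen, since the rule for named genes did not reach them. Transcription factor genes among them were bZIP52 (0.66 ± 0.11), the Dof gene OBP4 (0.61 ± 0.09), the heat shock factor HSFC1 (0.58 ± 0.13), the AT-hook gene AHL20 (0.56 ± 0.09), BEH1, a relative of BZR1 (0.52 ± 0.11), and LSH6, of the LIGHT SENSITIVE HYPOCOTYL family (0.62 ± 0.11). AT1G54200, AT1G21050 and AT4G28240 changed by 0.78 ± 0.15, 0.60 ± 0.11 and 0.54 ± 0.12. AT2G36026, of the ovate family, was rare, with 24 and 33 counts in low R/FR against 6 and 9 in high R/FR (1.72 ± 0.36, adjusted p = 0.0389). At 0 min in high R/FR it stood at 0.548 and 0.473 CPM, between its levels in low R/FR (0.805 and 0.797 CPM) and in high R/FR (0.177 and 0.313 CPM) at 15 min, and it was not called against 0 min (adjusted p = 0.545).

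The calls of the 4 falls, though not the whole of the fall in each, rested on high R/FR library 2. AT1G15405, annotated as other RNA, had 0.403 and 0.0966 CPM in low R/FR against 2.29 and 11.2 CPM in high R/FR (-4.84 ± 0.97, adjusted p = 0.0486). AT2G31141 had 0.369 and 0.121 CPM against 1.21 and 5.42 CPM (-3.81 ± 0.58, adjusted p = 0.00154). The chloroplast transfer RNA gene ATCG00400 had 0.235 and 0.169 CPM against 0.53 and 3.2 CPM (-3.17 ± 0.61), and ATCG00560, which encodes a photosystem II subunit, 0.436 and 0.314 CPM against 0.706 and 3.34 CPM (-2.41 ± 0.51). In all 4, high R/FR library 2 was the highest of the 18 hypocotyl libraries. Without it AT1G15405 stood at -3.29 ± 1.03 (adjusted p = 0.993) and AT2G31141 at -2.36 ± 0.55 (adjusted p = 0.204), while ATCG00400 stood at -1.39 ± 0.59 and ATCG00560 at -0.92 ± 0.49 (adjusted p = 1 for both). None of the 4 was called at 45, 90 or 180 min. ATCG00400 changed sign, to 0.35, against the libraries of 0 min. Chloroplast-encoded genes as a list had 2 of 83 called lower, 0 positive and a median of -1.91, and without library 2 a median of -0.03 with 38 positive. Mitochondrion-encoded genes had 0 of 17 called by edgeR (1 higher and 9 lower at an unadjusted p under 0.05; DESeq2 called 1 and limma-voom 0), with ATMG00060 and ATMG00160 at -2.60 ± 0.65 and -1.81 ± 0.47, and a median of -1.54 that was 0.11 without library 2.

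Low R/FR library 1 was above low R/FR library 3 for 30 of the 32 rising genes, where 49.6% of all tested genes had that order, and high R/FR library 2 was below library 1 for 25 of 32, against 50.2%. Markers of the endodermis moved with low R/FR library 1 as well: the 6 markers, all tested and none called, summed to 186 CPM in low R/FR library 1 and 64.2 CPM in low R/FR library 3, against 58.5 and 73.1 CPM in high R/FR. CASP1, which marks the Casparian strip, had 67.3 and 17.03 CPM in low R/FR against 14.6 and 18.7 CPM in high R/FR, and 38.6 and 48.2 CPM at 0 min. Without low R/FR library 1, the 32 genes had a median log2 change of 0.65, and 13 were called. The 10 cotyledon mesophyll markers, none at 0, summed to 42048 and 40312 CPM in low R/FR against 40625 and 36129 CPM in high R/FR, and to 137628 to 148417 CPM in the cotyledon libraries of 15 min. The 8 stomatal lineage markers summed to 24.2 and 23.05 CPM in low R/FR against 25.7 and 24.1 CPM in high R/FR, and 8 vascular markers to 326 and 323 CPM against 333 and 320 CPM. Root markers summed to 1.78 and 0.918 CPM in low R/FR against 1.47 and 0.556 CPM in high R/FR, with RHD6 at 0 in all 4 libraries. Shoot apex markers summed to 7.21 and 10.0 CPM against 9.09 and 9.10 CPM, with CLV3, WUS, UFO and CUC2 at 0 in all 4. Over these 6 lists edgeR called 0 of 37 tested markers, 6 being higher and 0 lower at an unadjusted p under 0.05, and DESeq2 and limma-voom also called 0. In whole organs, fewer cells of a type and less RNA per cell cannot be told apart, and the part of cell makeup in the calls was not tested.

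The later samples ask whether the genes of 15 min stayed changed. Of the 32, 31 were also higher at 45 min, where 2.09% of all genes were higher, 1.22% lower and 3.31% called in all, with a median log2 change of 1.91. At 90 min 28 were higher (19.1% of all genes) and 3 lower (18.5%, and 37.6% of all genes called in all), with a median of 1.74, and at 180 min 23 were higher (31.2%) and 4 lower (32.6%, and 63.8% called in all), with a median of 1.03. The gene not called at 45 min was AT2G36026, and those lower later were AT2G36026, LSH6 and AT4G28240 at 90 and 180 min, joined by HBI1 at 180 min. PIL1 went through 3.09, 5.37, 3.99 and 3.29 at 15, 45, 90 and 180 min, ATHB2 through 3.24, 4.38, 2.15 and 2.78, and SAUR22 through 1.52, 4.41, 4.35 and 2.75. HAT1 was near 1 at every time with all libraries, with 0.89, 1.06, 1.19 and 1.23. Its value at 15 min was 0.46 without low R/FR library 1, so a level course rests on that library.

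**Figure D4:**
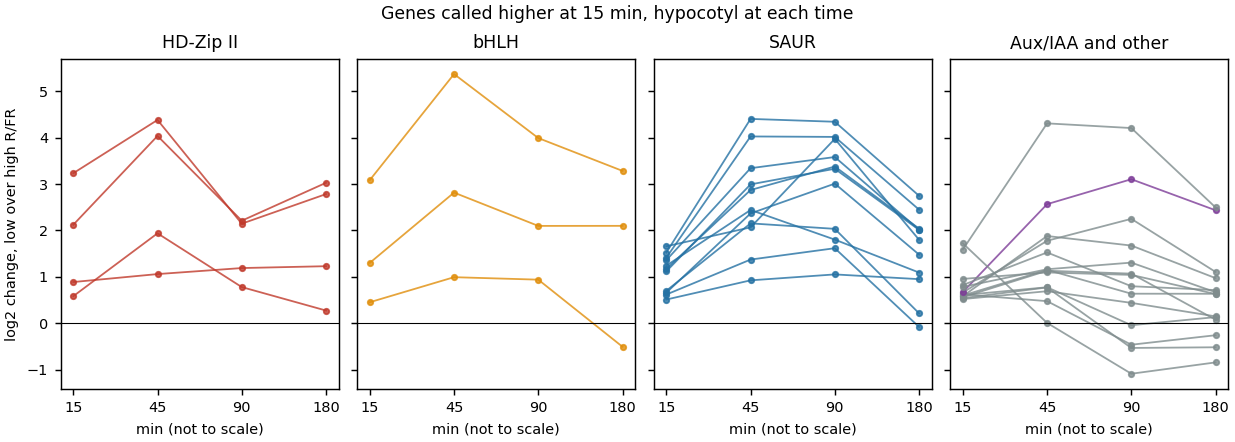
Log2 change of low over high R/FR in hypocotyl at 15, 45, 90 and 180 min for the 32 genes called higher at 15 min, by family (Aux/IAA in purple, other genes in grey). Most lines are higher at 45 than at 15 min, the median of the 32 being 1.91 at 45 min and 0.80 at 15 min, and 4 genes are called lower at 180 min.

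The change at 45 min minus that at 15 min tests the growth of the response itself, in a comparison that shares no library between the times. Of all genes 204 differed (1.01%), with 165 larger (0.82%) and 39 smaller (0.194%) at 45 min. Of the 32 genes, 21 were larger at 45 min and 0 smaller by edgeR, with 23 larger and 1 smaller at an unadjusted p under 0.05; DESeq2 and limma-voom each called 21 in either direction. Without high R/FR library 2 of 15 min, 142 genes differed, 120 larger and 22 smaller at 45 min, and 20 of the 32 were larger and 0 smaller. SAUR22 gained 2.88 ± 0.31, AT5G66580 2.72 ± 0.29, SAUR23 2.61 ± 0.31 and PIL1 2.29 ± 0.25, while HBI1 gained 0.54 ± 0.12. The largest of these differences were in SAUR22, AT5G66580 and SAUR23, and the 6 genes of the SAUR19 to SAUR24 cluster were all among the 21. Across all genes the smallest p-values for a larger change belonged to XYL1, an alpha-xylosidase of the cell wall (2.04 ± 0.11), PHYB (1.59 ± 0.11), SAUR28 (2.93 ± 0.23), SAUR64 (2.12 ± 0.17) and AFP3 (2.27 ± 0.21). None of these 5 was called at 15 min. XYL1 had 103 and 91.9 CPM in low R/FR against 81.3 and 73.7 CPM in high R/FR at 15 min (0.33 ± 0.08, adjusted p = 0.0895), and 380 and 404 CPM against 76.6 and 75.2 CPM at 45 min. For PHYB, which encodes the photoreceptor phytochrome B, the change was 1.74 at 45 min and 0.15 ± 0.08 at 15 min. The 5 with the smallest p for a smaller change were WAVH2 (-0.87 ± 0.12), AT1G78170 (-1.50 ± 0.22), MAKR1 (-1.10 ± 0.19), AT1G74940 (-1.23 ± 0.21) and MEE62 (-0.59 ± 0.10), which were lower in low R/FR at 45 min and not called at 15 min. IAA19, not called at 15 min, changed by 2.83 at 45 min, and IAA29 by 3.04, whereas XTH15 stood at 0.25 and was still not called (adjusted p = 0.766).

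The cotyledons of the same time show how much of the early response the organs share. At 15 min 32 genes were called higher in hypocotyl and 44 in cotyledon (0.219% of genes), and 15 were in both lists, 46.9% of the hypocotyl list and 34.1% of the cotyledon list. Without high R/FR library 2 of hypocotyl, 5 were shared (ATHB2, ATHB4, HFR1, BRG3 and AT5G66580), which is 83.3% of 6 hypocotyl calls and 11.4% of the cotyledon list, and without low R/FR library 1 of hypocotyl, 8 of 14. The 15 were ATHB2, ATHB4, HAT1, HAT3, HFR1, BRG3, IAA2, OBP4, SAUR19, SAUR20, SAUR21, SAUR23, AT5G66580, AT1G21050 and AT4G28240. Of the 32, 30 were positive in cotyledon, with a median of 0.86; 1 of the 30, AHL20, had at most 3 counts in a cotyledon group. Of the 44, 35 were positive in hypocotyl, with a median of 0.56. PIL1, called in hypocotyl, was rare in cotyledon, where it had 1.155 and 0.645 CPM in low R/FR against 0.138 and 0.0477 CPM in high R/FR, and its log2 change was 3.09 ± 0.17 in hypocotyl and 3.22 ± 0.71 in cotyledon (difference -0.13 ± 0.67, adjusted p = 1).

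**Figure D5:**
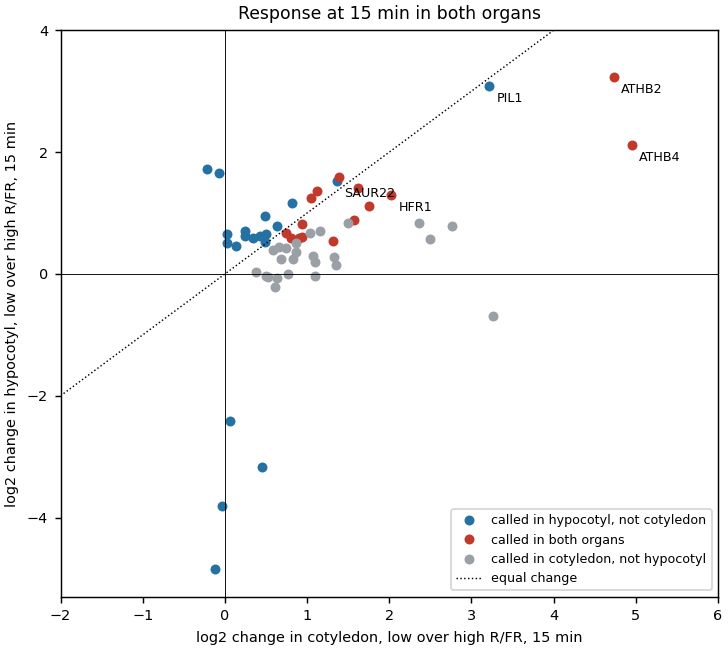
Log2 change of low over high R/FR at 15 min in hypocotyl (vertical) against cotyledon (horizontal) for 60 genes called in either organ and holding over 3 counts in each group: 15 called in both, 20 in hypocotyl and 25 in cotyledon. The dotted line marks equal change; ATHB2 and ATHB4 lie below it, and the 4 falls in hypocotyl lie near 0 in cotyledon.

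The difference between the organs was tested directly. In hypocotyl minus cotyledon response, 3 genes passed (0.0149% of genes), all with a smaller response in hypocotyl, and 0 with a larger one. ATHB2 differed by -1.50 ± 0.24 (adjusted p = 0.0182), with 150 and 102 CPM in low R/FR and 13.8 and 12.9 CPM in high R/FR in hypocotyl, and 157 and 118 CPM against 5.30 and 5.01 CPM in cotyledon. The low R/FR levels of the organs were alike and the high R/FR level was higher in hypocotyl. ATHB4 differed by -2.83 ± 0.45 (adjusted p = 0.0198), with a cotyledon level of 35.5 and 22.7 CPM in low R/FR against 0.923 and 0.955 CPM in high R/FR. YUC9, the auxin synthesis gene, had 411 counts over the low R/FR pair and 1 over the high R/FR pair in cotyledon, or 389 times the CPM (interval 69.4 to 15391), and 3 against 5 counts in hypocotyl, or 0.529 times (0.0822 to 2.72). None of the 3 passed without high R/FR hypocotyl library 2, when edgeR called 0 genes and 498 had an unadjusted p under 0.05, nor without high R/FR cotyledon library 2, when it called 0 and 672 did. Without library 1 of either light in cotyledon YUC9 alone passed. The cotyledon and hypocotyl libraries carry the same sample numbers. In a fit of the libraries of 15 min alone, with these numbers as a block, ATHB2 and ATHB4 passed and YUC9 did not (adjusted p = 0.0935). With all libraries DESeq2 called 3 genes and limma-voom 1, YUC9.

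In the authors' deposited table for this comparison, which lists 20957 genes, 448 had an adjusted p under 0.05. All 36 genes called here were in the authors' deposited table with the same sign, and 34 were below that threshold. The 2 above it were SAUR1 and AHL20, with adjusted p of 0.0647 and 0.626 in the authors' deposited table. The authors' adjustment differs from the one used here: LSH6, with an authors' p of 0.0102, had an authors' adjusted p of 0.046. The 2 thresholds are therefore unlike, and 448 and 34 are not counts at the threshold of the 36 calls.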

How the data were processed

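RNA was sequenced from dissected cotyledons and hypocotyls, and the deposited count table holds raw read counts per gene for 33602 genes in 36 libraries, with 5 summary lines that entered neither library sizes nor tests. Per the submitters' processing notes, TAIR10 was the build, and limma 3.18.2, edgeR 3.4.0, HTSeq 0.5.4p3, TopHat2 2.0.9 with Bowtie, and cutadapt 1.2.1 were the tools; the strand setting of the counting is not given in the sources used here, so reads of overlapping and antisense genes may not be separated. Per the labels' protocols the libraries were stranded. The authors' deposited table for hypocotyl at 15 min also gives a log2 change per gene with the authors' p-value and adjusted p-value, and was used only for the comparison that closes the report. Everything else was computed from the counts in R 4.3.3. Genes were filtered at edgeR's minimum count of 10 and minimum total of 15, library sizes were scaled by TMM, and the quasi-likelihood test of edgeR 4.0.16 was fitted robustly with 1 mean per group over all 36 libraries (18 residual degrees of freedom). Calls needed an adjusted p under 0.05 (Benjamini-Hochberg, over all genes of 1 comparison). CPM values used TMM-scaled library sizes. The range of gene counts is given in the report; ratios of few counts carry exact conditional binomial intervals. Alternatives were RLE scaling, no filter, DESeq2 1.42.0, limma-voom in limma 3.58.1, a replicate block, other sets of libraries or controls, organelle genes left out, and each library left out in turn. The scripts' statistics were tested on simulated data.

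Named genes followed a rule: a panel of 9 shade genes, up to 15 largest rises without overlap whose average log2 CPM reached 1, every fall, every gene called without high R/FR library 2, up to 4 called genes per list or 2 where none was called, and up to 5 each way by smallest p in the 2 difference contrasts. The genes, lists and comparisons were chosen with earlier results of these data known. Same-numbered libraries of both lights did not deviate together: at 15 min in hypocotyl only number 1 is shared (correlation of deviations -0.165), so the main fit has no block. Cotyledon and hypocotyl libraries share sample numbers, and per the labels' protocols each sample was 1 plate; at 15 min their deviations correlated at 0.109 in low R/FR and 0.0538 in high R/FR. Promoters and coding sequences are from RefSeq TAIR10.1.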

Additional observations from a re-analysis of the deposited data

Results flagged for a closer look

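Several results stood out by fixed rules, and no explanation was weighed for any of them. The response of hypocotyl minus that of cotyledon at 15 min differed from 0 for 3 genes: -1.50 for ATHB2, -2.83 for ATHB4 and -9.21 for YUC9. The YUC9 value is a fitted one that rests on 1 count in the cotyledon high R/FR pair and on 3 and 5 counts in hypocotyl in low and high R/FR, so its size is set by the fit and not measured.

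The response at 45 min exceeded that at 15 min for 21 of the 32 genes that rose at 15 min. Among transcription regulators the log2 difference was 2.29 for PIL1, 1.92 for ATHB4, 1.52 for HFR1, 1.36 for HAT3, 1.3 for HSFC1, 1.15 for ATHB2, 1.12 for bZIP52, 0.57 for AHL20 and 0.54 for HBI1. Among auxin-induced genes it was 2.88 for SAUR22, 2.61 for SAUR23, 1.98 for SAUR21, 1.90 for IAA2, 1.88 for SAUR19, 1.71 for SAUR29, 1.70 for SAUR24, 1.45 for AT1G29510, 1.2 for SAUR20 and 0.75 for SAUR14. It was 2.72 for AT5G66580 and 0.70 for BRG3.

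Outside the gene counts, hypocotyl high R/FR library 2 at 15 min held 39 non-unique alignments per 100 gene counts, above the 7.24 to 11.23 of the other hypocotyl libraries. The part of these alignments in its gene counts was not tested.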

How the results depend on the processing

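At 15 min in hypocotyl, 36 genes were called, against 39 with RLE scaling, 29 with limma-voom and 33 without organelle-encoded genes, and 94 with DESeq2, 74 without the filter, 14 with the 18 hypocotyl libraries alone, 2 with the 4 libraries alone, 176 with the 0 min control and 65 with the 0 and 15 min control. Leaving out a library gave 6 to 456 calls: 456 without high R/FR library 1, 6 without library 2, 17 and 203 with low R/FR library 1 or 3 left out. An alternative chosen after seeing the data, the hypocotyl libraries alone without high R/FR library 2, called 3. The fall of ATCG00400 reversed against the 0 min control (0.35, adjusted p = 0.966), and its other settings kept their sign. The organ difference had 3 calls, 1 with limma-voom, 7 without the filter and 0 to 54 with a library left out: for hypocotyl 54 and 0 without high R/FR libraries 1 and 2 and 6 and 5 when those of low R/FR, 1 or 3, were removed, and for cotyledon 1 without library 1 of either light and 0 without high R/FR library 2. The difference of 45 from 15 min had 204 calls, 139 to 340 with a library left out (340 without high R/FR library 1 of 15 min). The 45 min response had 666 calls and 359 to 591 with a library left out, the lowest being 382 and 359 without the libraries numbered 2 in low and in high R/FR. The cause of these shifts was not tested.

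With the replicate block, 33 genes were called at 15 min, all higher, and the organ difference kept 3 calls, or 2 with plates as the block; the difference of 45 from 15 min had 203, and the responses at 45, 90 and 180 min had 739, 7831 and 12740. The numbers do not pair the lights, which share only number 1 at 15 min. The organs share sample numbers. The fit with plates as the block used the libraries of 15 min alone, not all 36, and YUC9 was not called in it. The parts of the block and of the smaller set of libraries in that loss cannot be told apart. With 2 libraries per group, small changes were at the limit of detection.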

Other observations

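Beside the 32 genes, several relatives rose when high R/FR libraries of 0 min were joined to library 1 of 15 min as control. That control leaves out high R/FR library 2 and mixes sampling times. In the SAUR61 to SAUR68 cluster 5 of 8 genes were called with that control and in the SAUR26 to SAUR29 cluster 4 of 5, against 1 each with the 15 min control. SAUR63 had 34.3 and 23.05 CPM in low R/FR against 18.21 and 14.5 CPM in high R/FR at 15 min (0.80 ± 0.18, adjusted p = 0.0975), and SAUR62 44.7 and 29 CPM against 25.2 and 20.9 CPM (0.67 ± 0.15, adjusted p = 0.0744). At 45 min all 8 and all 5 were called higher.

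Some genes of the lists were called in cotyledon at 15 min and not in hypocotyl; the difference between organs did not pass the test for them. They include the bHLH gene PAR1, with log2 changes of 0.57 in hypocotyl and 2.49 in cotyledon, the auxin carrier AUX1, with 0.03 and 0.38, and YUC2, with -0.03 and 1.1. These genes were chosen after their values were seen.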
